A study of Canis lupus familiaris with 25 samples.

Results

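Apocrine gland anal sac adenocarcinoma (AGASAC) that had spread to a sublumbar lymph node was compared with hepatoid gland adenoma (HGA) of the perianal skin, gene by gene, in 14 of the 25 samples of the study. The samples were the 4 AGASAC metastases and all 10 HGA, and the other 11 were primary AGASAC, among them the primary tumors of the 4 dogs whose metastases were sequenced. The study sequenced archival formalin-fixed, paraffin-embedded (FFPE) canine tumors with QuantSeq 3′, a method that counts transcripts from reads close to the poly(A) tail, in order to compare this method with a hybridization panel. The comparison of metastases with HGA asks which differences between the tumor types are also found when the carcinoma grows away from the anal sac.

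The metastases came from a 9-year-old neutered female Rhodesian Ridgeback (metastasis 1), a 9-year-old neutered male Border Collie (metastasis 2), a 10-year-old neutered male of mixed breed (metastasis 3) and an 8-year-old female Labrador Retriever (metastasis 4). The HGA came from 5 females and 5 males of 8 to 14 years (median 12), of which 4 were neutered, and they covered 10 different breed labels. No drug treatment is given in the labels for any group. Each of the 14 samples was a different dog, so the p-values measure the spread between dogs, and 4 dogs stand for all nodal metastases here. By the study's methods, tissue next to the tumors was taken off and the RNA came from whole cross sections, so tumor cells and any stroma or host tissue left share each library, and a lower level of a gene can come from fewer cells of a type or from less RNA per cell, which cannot be told apart.

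Both tumors are common glandular tumors of the canine perianal region. HGA arises from hepatoid (circumanal) glands, which are modified sebaceous glands of the perianal skin whose lobules of large, hepatocyte-like cells are ringed by flat basaloid reserve cells, and it is usually benign and responds to androgens. AGASAC arises from the apocrine glands in the wall of the anal sac, spreads early to the sublumbar lymph nodes, and is known for hypercalcemia caused by parathyroid hormone-related protein.

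The counts on genes were 2857541 to 3289546 per metastasis (median 3102626) and 1562347 to 6389555 per HGA (median 2506085). Levels are given as CPM, the counts of a gene relative to the total of its library, after scaling by the trimmed mean of M-values (TMM), and the upper limit behind a count of 0, which is 3 counts, was 0.796 to 0.973 CPM in the metastases and 0.543 to 1.84 CPM in HGA, for counting error only. RNA quality overlapped, with a DV200 (the share of RNA fragments over a set length) of 71.8% to 82.9% in the metastases and 70.5% to 92.7% in HGA. Over 14948 genes, a metastasis had a Spearman correlation of 0.9205 to 0.9707 with the primary tumor of its own dog, 0.8726 to 0.8901 with the other metastases and 0.6292 to 0.7151 with HGA, as a description across genes. HGA 10 stood apart from the rest of its group, with 0.7654 to 0.8183 against the other HGA, and was the one sample of its RNA extraction batch. The summed level of 21 genes of sebaceous lipid storage and synthesis was 5226 CPM in HGA 10 and 45046 to 137555 CPM in the other 9 HGA, so results that rest on it are given with and without it.

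The tissue label of the metastases was checked against markers of the lymph node. MS4A1, the B cell antigen CD20, was at 4.87, 3.45, 3.54 and 4.79 CPM in metastases 1 to 4 and at 0 to 9.04 (median 0) CPM in HGA. The chemokine CCL19 of nodal stroma was at 2.27 to 8.36 CPM in the metastases, and MADCAM1, an adhesion molecule of nodal vessels, was at 0 in 3 of them and at 0.319 CPM in metastasis 4. edgeR called 0 of 5 tested B cell genes and 0 of 3 nodal stroma genes higher in the metastases than in HGA, with 1 of each higher at an unadjusted p under 0.05. Of all tested genes, edgeR called 7.69% higher and 8.4% lower, and 41.2% had an unadjusted p under 0.05 in either direction. DESeq2 called 1 gene of each list higher, where it called 1483 of all 17048 genes it gave an adjusted p. In the other direction, both called 1 nodal stroma gene lower, CCL21 (edgeR log2FC -4.02, adjusted p = 0.0133, and DESeq2 log2FC -3.99 ± 0.67, adjusted p = 4.91e-07). Nodal stroma markers summed to 12.3 to 48.6 (median 25.9) CPM in the metastases and 13.3 to 147 (median 45.0) CPM in HGA. The B cell gene that DESeq2 called was MS4A1 (DESeq2 log2FC 5.29 ± 1.17, adjusted p = 0.000589). edgeR did not call it with HGA 8 in the fit (log2FC 2.13) and called it without HGA 8 (log2FC 6.64 ± 0.89, adjusted p = 0.0113). DESeq2 was run with its default handling of outlying counts, so these 2 calls are not counted as separate.

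Of 24532 genes, 13195 had enough counts to be tested, and 1015 of them (7.69%) were higher and 1109 (8.4%) lower in the metastases than in HGA. A gene was called if its adjusted p was no more than 0.05 and its log2 fold change (log2FC, metastasis relative to HGA) was 1 or more in size. Adjusted p is always Benjamini-Yekutieli's, from the quasi-likelihood test of edgeR, unless another is named, and log2FC values carry their standard error. The CPM of the 4 metastases and the 10 HGA did not overlap for 835 of the genes called higher (6.33% of all tested) and 783 of those called lower (5.93%), and over all tested genes, called or not, 8.72% did not overlap on the higher and 7.38% on the lower side. At an unadjusted p under 0.05 stood 41.2% of the tested genes. Side by side, the 11 primary AGASAC against the same 10 HGA gave 1509 genes higher (12.5%) and 1523 lower (12.6%) of 12070 tested. That comparison shares its HGA with the one above and has more carcinomas, so the counts are not compared.

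Without HGA 10 the fit called 1195 genes higher and 1393 lower. Scaling by library size alone, in place of TMM, moved the median log2FC of all tested genes from -0.018 to 0.262 and the share of higher genes among those called from 47.8% to 63.7%. RNA was extracted in batches: metastases 1 and 2 with HGA 6 and 7 in batch 8, and metastases 3 and 4 with HGA 4, 8 and 9 in batch 5. With batch as a term over these 9 samples, 559 genes were higher and 709 lower. Within a single batch edgeR called 0 genes, with 3074 genes at an unadjusted p under 0.05 in batch 5 (2 metastases against 3 HGA) and 4386 in batch 8 (2 against 2). Among the 2124 genes called over all 14 samples, 0 turned their direction within batch 8 and 1 within batch 5. These batches are parts of the samples that gave the calls, so the counts are a description only. Restriction to neutered dogs, 3 metastases and 4 HGA, left 246 genes higher and 234 lower. There, 43 of the named genes followed through the alternatives, a set without FAR2, lost their call. Called members of a list fell in number there too, from 9 to 3 lower for the sebaceous lipid list, 9 to 1 for cholesterol and 5 to 1 for steroid genes, and from 6 to 3, 5 to 3 and 5 to 2 higher for simple epithelium, apocrine proteins and luminal factors. With batch as a term, over fewer samples, 12 genes of the set followed lost their call. They were VDR, MET, HOXD11, MCM6, IFIT2, IFIT3, ISG15, LTF, CD3G, CD14, IGF2 and SRD5A3. Their adjusted p ran from 0.066 for IFIT2 to 0.588 for IGF2. Their log2FC kept its direction, at for example 3.90 ± 0.82 for IFIT2, 3.17 ± 0.81 for ISG15 and 2.83 ± 0.98 for IGF2. The median shift under library size scaling was smaller than the log2FC of 1 that a call needs. Called genes thus had little room to turn their direction, and 0 did.

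**Figure D1:**
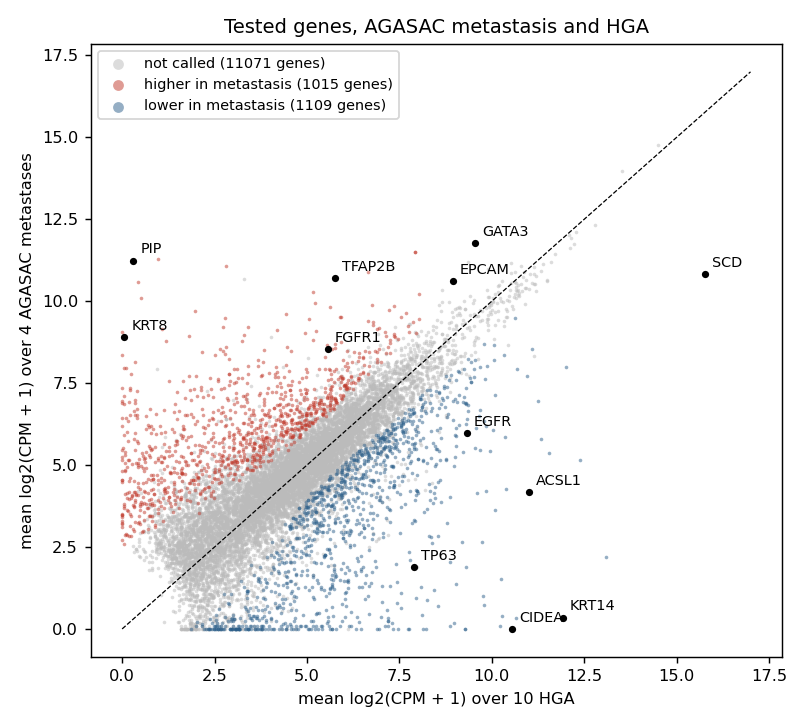
Mean log2(CPM + 1) of the 13195 tested genes over the 10 HGA (x axis) and the 4 metastases (y axis), with 1 dot a gene, called genes in color (1015 higher in red, 1109 lower in blue), some genes of the text named and a dashed line of equal level. Called genes lie on both sides of the line over the whole range of levels, with KRT8, PIP and TFAP2B above it and CIDEA, KRT14 and SCD below it.

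The largest differences set receptors, enzymes and glandular keratins in the metastases against lipid droplet, keratin and cornification genes in HGA. The named genes are the 8 with the highest and the 8 with the lowest log2FC among called genes with a symbol and no overlap. Several were at 0 in every library of one tumor type, and for them a lower bound of the fold is given, computed against 3 counts over that group.

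On the side of the metastases, QRFPR, the receptor of the RFamide neuropeptide QRFP, was at 584, 1496, 1323 and 68.4 CPM in metastases 1 to 4 and at 0 in all 10 HGA, at least 701-fold higher (adjusted p = 0.000416). GCGR, the glucagon receptor, was at 263, 276, 408 and 384 CPM and at 0 in all HGA, at least 269-fold higher (adjusted p = 3.86e-06). B3GALT2, a galactosyltransferase of glycan synthesis, was at 339.7, 355, 16.4 and 350.5 CPM and at 0 in all HGA, at least 214-fold higher (adjusted p = 0.000761). The 3 genes did not vary alike: GCGR was within a narrow range, QRFPR was lowest in metastasis 4 and B3GALT2 in metastasis 3. RNF212, a factor of meiotic recombination, was at 246, 180.1, 75.6 and 55.6 CPM and at 0 in all HGA, at least 112-fold higher (adjusted p = 0.000114). CYP4A11, a fatty acid omega-hydroxylase, was at 47.4, 847, 126 and 756 CPM against 1 count over all HGA, a ratio of 13176 (95% counting interval 2364 to 520512). PIP, the prolactin-induced protein that apocrine glands secrete, was at 1585, 1792, 5238 and 2269 CPM against 0 to 1.23 (median 0) CPM in HGA (log2FC 13.14 ± 0.70, adjusted p = 1.98e-08). The primary tumors of the study had these 6 genes at 141 to 2653, 63.7 to 401, 2.19 to 462, 0 to 309, 4.54 to 1815 and 887 to 5916 CPM, so the metastases overlapped the range of the primaries for each.

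On the side of HGA, CIDEA, a protein that enlarges lipid droplets, was at 0 in all 4 metastases and at 386 to 2365 (median 1627) CPM in HGA, at least 1784-fold lower in the metastases (adjusted p = 4.08e-07). CALML5, a calmodulin-like protein of differentiating keratinocytes, was at 0 in the metastases and at 1.72 to 1287 (median 496) CPM in HGA, at least 598-fold lower. LIPM, a lipase of the epidermis, was at 0 against 126 to 380.1 (median 182) CPM, at least 248-fold lower (adjusted p = 4.91e-07). The spread was wide for CALML5, whose lowest HGA value was that of HGA 10 while the other 9 ran from 139 to 1287 CPM. SPHKAP, an anchoring protein of protein kinase A, was at 0 against 77.8 to 532 (median 203) CPM, at least 279-fold lower (adjusted p = 2.76e-05). TGM5, a transglutaminase that cross-links the cornified envelope, was at 0 against 7.74 to 426 (median 238) CPM, at least 240.0-fold lower (adjusted p = 0.000194). The keratins KRT14 and KRT79 and the desmosomal cadherin DSG1, the other 3 of the 8, are given with the stratified epithelium.

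**Figure D2:**
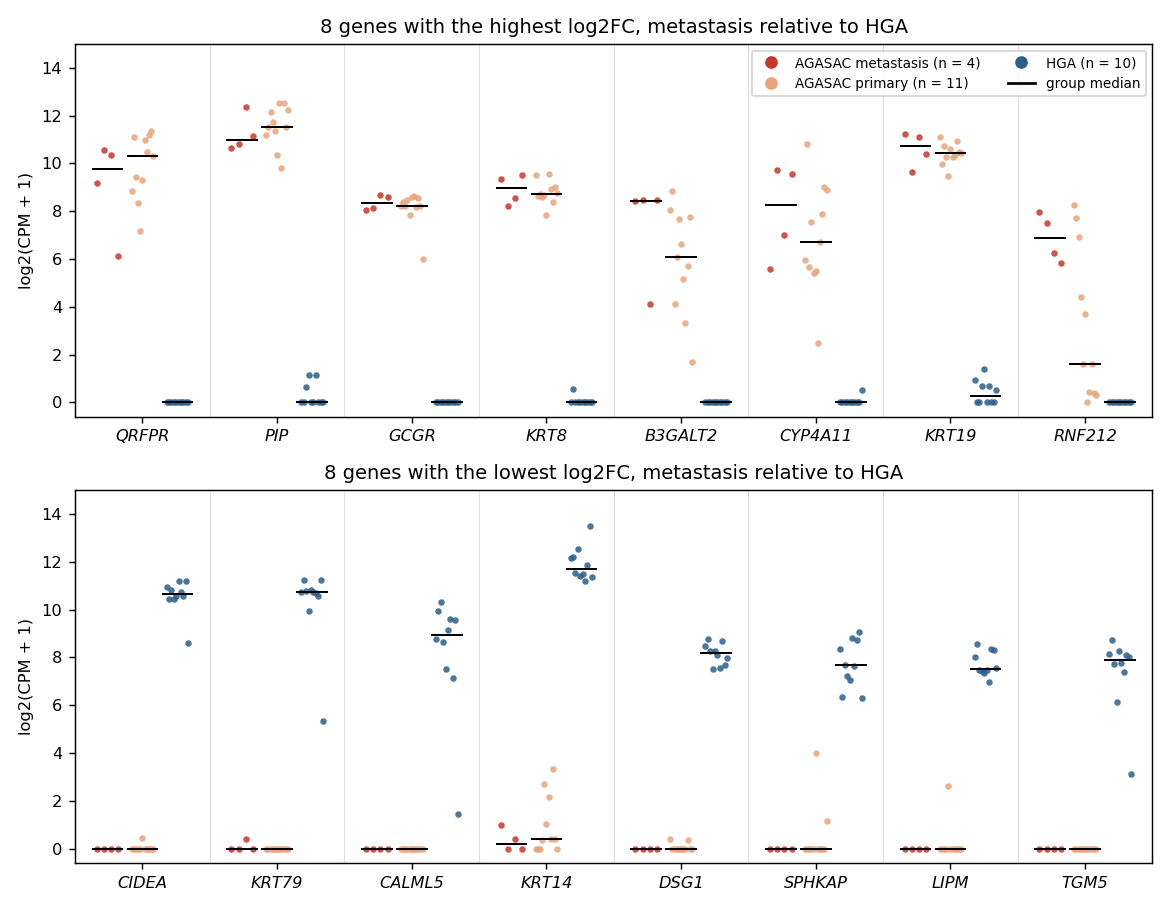
Level of the 8 genes with the highest (upper panel) and the 8 with the lowest log2FC (lower panel) as log2(CPM + 1), with 1 dot a sample for 4 metastases, 11 primary AGASAC and 10 HGA, and a line at the group median. Metastases and HGA do not overlap for any of the 16 genes, and the median of the primaries is nearer to that of the metastases for all but RNF212, whose primary median was 2.08 CPM.

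Genes of simple (single-layered) gland epithelium were higher in the nodal tumors. Of 10 keratins, claudins and EPCAM of simple epithelium, 8 were tested, and 6 rose and 0 fell (75% rose, where 7.69% of all tested genes did), with a median log2FC of 4.71 where the median of all tested genes was -0.018. KRT8, a keratin of single-layered epithelium, was at 650.5, 299, 376 and 735 CPM against 1 count over all HGA, a ratio of 14265 (95% counting interval 2559 to 563526) (adjusted p = 2.87e-10). Its partner KRT18 was at 913, 462, 556 and 443 CPM against 0 to 33.3 (median 0.204) CPM (log2FC 6.92 ± 1.04, adjusted p = 0.00102). DESeq2 did not call KRT18 (adjusted p = 0.153). Reads that matched several places were split evenly by the authors, so levels of keratins with near-identical copies are uncertain. KRT19 was at 2409.8, 792, 2203 and 1338 CPM against at most 1.62 CPM in HGA (log2FC 11.82 ± 0.59), and the ductal keratin KRT7 at 557, 439, 553 and 656 CPM against 0.860 to 147 (median 61.5) CPM (log2FC 3.18 ± 0.62, adjusted p = 0.00957). CLDN7, a tight junction claudin, was at 89.9 to 120.1 CPM against 0 to 5.102 (median 0.431) CPM (log2FC 6.23 ± 0.63, adjusted p = 1.98e-05). The epithelial adhesion molecule EPCAM was on in both tumors, at 1452 to 1810.5 CPM in the metastases and 289 to 629 (median 504) CPM in HGA (log2FC 1.61 ± 0.21, adjusted p = 0.000279). None of the 6 overlapped between the groups. In the 11 primaries against HGA their log2FC were 3.36 for KRT7, 6.88 for KRT18, 11.59 for KRT19, 5.73 for CLDN7 and 1.46 for EPCAM.

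Proteins that apocrine glands secrete or carry at the cell surface were also higher in the metastases, but unevenly between dogs. Of 11 listed genes, 6 were tested, and 5 rose and 0 fell (83.3% rose, where 7.69% of all tested genes did, median log2FC 6.12). Besides PIP, ANPEP, the membrane aminopeptidase N, was at 822, 588, 1129 and 488 CPM against 0 to 20.6 (median 6.05) CPM (log2FC 6.55 ± 0.54, adjusted p = 2.49e-06). AQP5, the water channel of secretory glands, was at 444, 167, 6.75 and 182 CPM against 0 to 2.13 (median 0) CPM (log2FC 8.78 ± 0.91, adjusted p = 2.57e-05). AZGP1, a secreted zinc-binding glycoprotein, was at 359.8, 565, 34.7 and 308 CPM against 0 to 19.7 (median 10.4) CPM (log2FC 5.03 ± 0.67, adjusted p = 0.000297). Metastasis 3 had the lowest AQP5 and AZGP1 of the 4 and the highest PIP, and all 4 were above every HGA for each of these genes. The iron-binding protein LTF was at 171, 285, 27.0 and 76.0 CPM against 0 to 15.2 (median 0.588) CPM (log2FC 5.70 ± 0.92, adjusted p = 0.00189). The protease inhibitor SLPI did not pass the test at 452, 7473, 2679 and 773 CPM against 0 to 349 (median 4.27) CPM (log2FC 5.48 ± 1.39, adjusted p = 0.0619), although the groups did not overlap. SLPI was called higher in 7 of 27 alternatives, among them DESeq2 (adjusted p = 0.0255) and neutered dogs (adjusted p = 0.0186).

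Transcription factors of luminal gland cells differed in both directions. Of 12 listed, 10 were tested, and 5 rose and 1 fell (50% and 10%, where 7.69% and 8.4% of all tested genes did, median log2FC 2.46). SPDEF, a factor of secretory cells, was at 176, 109, 164 and 107 CPM against 1 count over all HGA, a ratio of 3889 (95% counting interval 697 to 153704). FOXA1, a pioneer factor of luminal and endodermal glands, was at 30.2, 12.7, 8.04 and 15.3 CPM against 3 counts over all HGA, a ratio of 154 (95% counting interval 52.0 to 753). TFAP2B, an AP-2 factor, was at 1771, 1393, 1581 and 1942 CPM against 23.98 to 73.0 (median 59.5) CPM (log2FC 4.90 ± 0.24, adjusted p = 9.42e-09). GATA3, a factor of luminal and skin epithelium, was high in both tumors, at 4531, 2671, 4471 and 2806 CPM against 504 to 2047 (median 703) CPM (log2FC 2.096 ± 0.35, adjusted p = 0.00286), with HGA 10 the highest HGA. EHF, an epithelial ETS factor, was at 96.7, 23.1, 74.3 and 289.8 CPM against 0 to 8.68 (median 1.80) CPM (log2FC 5.34 ± 0.75, adjusted p = 0.000538). Its relative ELF3 was at 13.3 to 53.7 CPM against 0 to 10.6 (median 3.92) CPM and missed the threshold (log2FC 2.76 ± 0.70, adjusted p = 0.0618). ELF3 was called in 7 of 27 alternatives, among them without HGA 10 (adjusted p = 0.0355), without HGA 4 (adjusted p = 0.0492) and with DESeq2 (adjusted p = 0.0103). The 5 that rose did so in every metastasis, above every HGA. SOX9, a factor of stem and duct cells, fell, at 0.649, 3.18, 1.61 and 4.79 CPM against 14.6 to 99.1 (median 69.5) CPM (log2FC -4.61 ± 0.65, adjusted p = 0.000518).

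The opposite pattern was seen for stratified (multilayered) epithelium, the kind that forms the epidermis and the reserve cells of hepatoid glands. Of 20 keratins, desmosomal and basement membrane genes, 19 were tested, and 0 rose and 12 fell (63.2%, where 8.4% of all tested genes fell). The median log2FC was -6.16, or -4.17 with the 4 genes at 0 in all metastases set to their bounds. KRT14, a keratin of basal cells, was at 0.973, 0, 0.322 and 0 CPM in metastases 1 to 4 and at 2359 to 11496 (median 3367) CPM in HGA (log2FC -13.65 ± 0.98, adjusted p = 5.7e-07). Its partner KRT5 was at 0, 0.265, 0 and 12.1 CPM against 422 to 2254 (median 848) CPM (log2FC -8.34 ± 1.18, adjusted p = 0.000584). TP63, the master factor of basal epithelial cells, was at 6.49, 0.265, 1.61 and 6.39 CPM against 162 to 532 (median 193) CPM (log2FC -6.16 ± 0.68, adjusted p = 4.88e-05). For all 3 the groups were far apart, and HGA 10 was not low, with 2615 CPM of KRT14, 1371 of KRT5 and the highest TP63 of the 14 samples. KRT79, a keratin of sebaceous ducts, had 1 count over the 4 metastases and was at 39.1 to 2427 (median 1701) CPM in HGA, a ratio of 21307 (95% counting interval 3824 to 841608). KRT17, a keratin of hair follicles and basal cells, also had 1 count in the metastases, with a ratio of 2838 (95% counting interval 509 to 112129). HGA 10 had the lowest KRT79 and KRT17 of the HGA, at 39.1 and 4.73 CPM.

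Cell contacts of stratified epithelium fell in part. The desmosomal cadherins DSG1 and DSG3 were at 0 in all 4 metastases against 183 to 432 (median 288) and 32.2 to 109 (median 44.7) CPM in HGA, at least 316-fold and 59.1-fold lower. LAMB3, a laminin chain of the epidermal basement membrane, was at 0.649, 0, 0 and 11.2 CPM against 82.3 to 616 (median 154) CPM (log2FC -6.29 ± 1.1, adjusted p = 0.00371). ITGB4, the hemidesmosome integrin, was at 6.43 to 14.7 CPM against 49.8 to 221 (median 101) CPM (log2FC -3.62 ± 0.40, adjusted p = 5.08e-05). DSP, the desmoplakin that every desmosome holds, was expressed in both tumors, at 324, 194, 211 and 206 CPM against 211 to 704 (median 395) CPM, and was not called (log2FC -0.85 ± 0.29, adjusted p = 0.349). In the primaries against HGA, DSP was called lower (log2FC -1.46), and metastasis against primary of the same dogs gave -0.04 ± 0.30 for it, which did not pass the test.

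Lipid genes separated the tumors strongly, with HGA 10 on the low side of its group. Of 22 genes of sebaceous lipid storage and synthesis, 17 were tested, and 1 rose and 9 fell (5.88% and 52.9%, where 7.69% and 8.4% of all tested genes did, median log2FC -2.15). Without HGA 10, 10 fell, where 1393 of all 13263 tested genes did. SCD, the stearoyl-CoA desaturase, was at 2379, 1273, 1726 and 2123 CPM in metastases 1 to 4 and at 2206 to 116391 (median 76685) CPM in HGA (log2FC -5.35 ± 0.89, adjusted p = 0.00244). The groups overlapped through HGA 10 alone, at 2206 CPM, since the other 9 HGA were at 37005 CPM or more. ELOVL5, a fatty acid elongase, was at 15.9, 25.5, 85.2 and 40.9 CPM against 324 to 13723 (median 9476) CPM (log2FC -7.62 ± 1.11, adjusted p = 0.00071). ACSL1, which activates long-chain fatty acids, was at 22.4, 14.3, 12.9 and 20.4 CPM against 80.0 to 6932 (median 2718) CPM (log2FC -7.42 ± 0.94, adjusted p = 0.000189). HGA 10 held the lowest value of both, 324 CPM of ELOVL5 and 80.0 CPM of ACSL1, above every metastasis for both genes. CIDEC, a lipid droplet protein related to CIDEA, was at 1.30, 1.33, 0.322 and 0.639 CPM against 96.5 to 1264 (median 292) CPM (log2FC -8.75 ± 0.92, adjusted p = 2.79e-05), and here HGA 10 was not low, at 509 CPM. AWAT2, an acyltransferase of wax ester synthesis, was at 0 in the metastases and at 9.77 to 41.5 (median 17.1) CPM in HGA, at least 21.4-fold lower. FASN, the fatty acid synthase, was at 363, 634, 409.8 and 289.8 CPM against 320.4 to 3099 (median 1441) CPM and was not called (log2FC -1.98 ± 0.50, adjusted p = 0.0603). It was called in 6 of 28 alternatives, among them without HGA 10 (log2FC -2.09 ± 0.39, adjusted p = 0.00652) and with DESeq2 (adjusted p = 0.00125). The lipid droplet coat PLIN2 was at 684, 120.2, 1139.6 and 736 CPM against 115 to 658 (median 206) CPM, and PPARG, a regulator of fat and sebocyte genes, at 18.3 to 60.4 against 42.4 to 221 (median 95.4) CPM, and neither was called. PPARG was called lower in 4 of 28 alternatives, among them DESeq2 (adjusted p = 0.0113). The gene that rose, FAR2, a fatty acyl-CoA reductase of wax synthesis, was at 27.9, 401, 4.82 and 31.9 CPM against 0 to 9.89 (median 2.12) CPM (log2FC 5.19 ± 0.94, adjusted p = 0.00502). Metastasis 2 was far above the rest and metastasis 3 within the HGA range. The list held 0 genes called higher with batch as a term and 0 in neutered dogs, so FAR2 lost its call in both.

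Several cholesterol genes fell. All 14 genes of cholesterol synthesis and uptake were tested, and 0 rose and 9 fell (64.3%), where 8.4% of all tested genes fell (median log2FC -1.88). FDFT1, the squalene synthase, was at 51.3, 39.0, 34.4 and 54.0 CPM in metastases 1 to 4 and at 83.9 to 715 (median 371) CPM in HGA (log2FC -3.22 ± 0.46, adjusted p = 0.000589). MVK, the mevalonate kinase, was at 17.8, 22.3, 34.7 and 17.6 CPM against 30.5 to 163 (median 133) CPM (log2FC -2.37 ± 0.39, adjusted p = 0.00238). FDFT1 did not overlap, while the lowest HGA for MVK, again HGA 10, lay just under metastasis 3. DHCR7, a reductase of the final step, was at 12.0, 13.3, 37.3 and 23.3 CPM against 11.2 to 224 (median 125) CPM (log2FC -2.61 ± 0.57, adjusted p = 0.0217), and its call was lost without metastasis 1, 2 or 4 (adjusted p = 0.0802 to 0.112). The groups overlapped for DHCR7 through HGA 10.

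**Figure D3:**
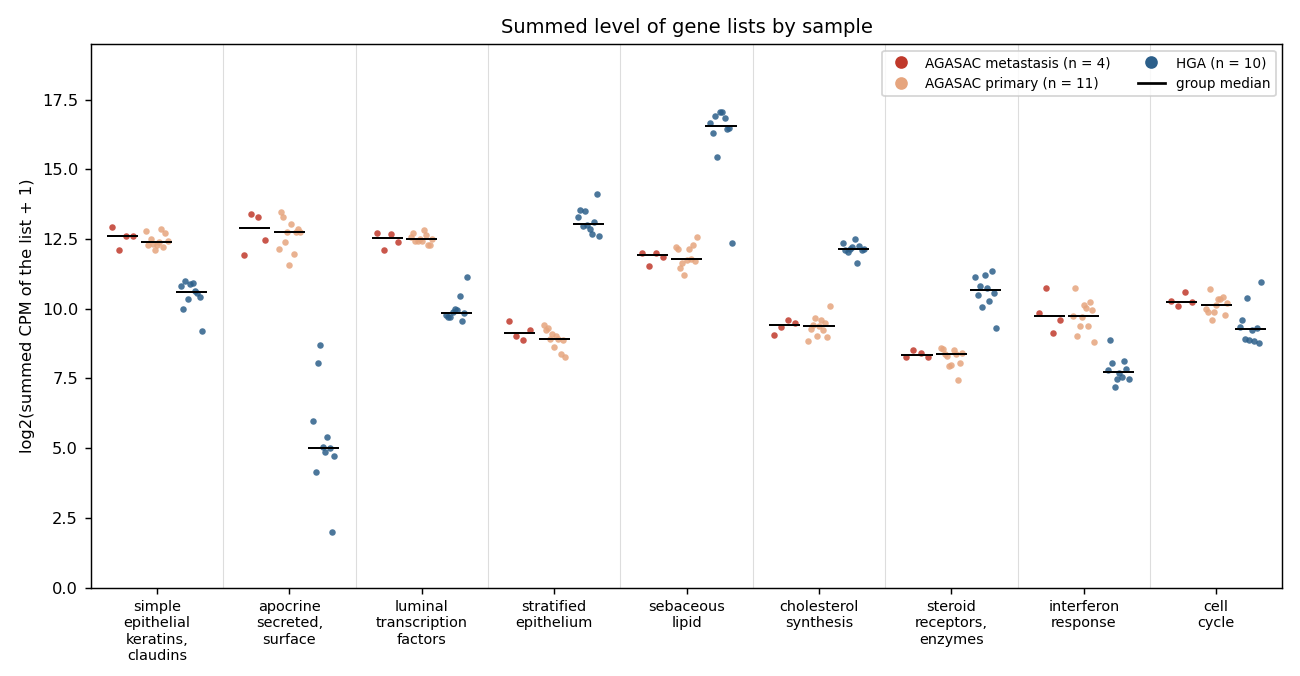
Summed CPM of 9 gene lists per sample, as log2(sum + 1), for 4 metastases, 11 primary AGASAC and 10 HGA, with 1 dot a sample and a line at the group median. The metastases overlap the primaries in every list, and HGA 10 is the low HGA dot of the sebaceous lipid list (5226 CPM) and the high one of the cell cycle list (2001 CPM).

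Hepatocyte genes were low in both tumors. Of 13 listed genes, 2 were tested by edgeR and 0 were called, with 0 at an unadjusted p under 0.05, and DESeq2 called 1, FGB. Of all tested genes edgeR called 16.1%, with 41.2% at such a p. DESeq2 called 3187 of all 17048 genes it gave an adjusted p. ALB, the serum albumin, was at 0, 0.265, 0.322 and 0 CPM in the metastases and at 0 to 3.16 (median 0.409) CPM in HGA. FGB, a fibrinogen chain, was at 0, 4.78, 17.7 and 32.9 CPM in metastases 1 to 4 and had 1 count over all HGA. Too few libraries held it for edgeR's test, and DESeq2 gave log2FC 7.35 ± 2.08 (adjusted p = 0.0236).

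Receptors of sex steroids and enzymes that convert them were lower in the nodal tumors. Of 18 genes, 10 were tested, and 0 rose and 5 fell (50%, where 8.4% of all tested genes fell, median log2FC -1.42). ESR1, the estrogen receptor alpha, was at 3.89, 7.96, 0.322 and 3.19 CPM in metastases 1 to 4 and at 84.0 to 249 (median 179) CPM in HGA (log2FC -5.50 ± 0.55, adjusted p = 1.91e-05). The groups did not overlap for it, and every HGA was well above the highest metastasis. SRD5A1, a steroid 5-alpha-reductase that forms dihydrotestosterone, was at 19.1, 23.6, 14.5 and 32.3 CPM against 27.95 to 1512 (median 487) CPM (log2FC -4.77 ± 0.92, adjusted p = 0.00823), with HGA 10 at 27.95 CPM inside the metastasis range. For the other 9 HGA the enzyme was well above the metastases, at 122 CPM or more. HSD17B6, a steroid dehydrogenase, was at 7.46, 6.90, 5.15 and 8.95 CPM against 14.6 to 105 (median 86.3) CPM (log2FC -3.51 ± 0.42, adjusted p = 0.000108). SRD5A3 was at 12.2 to 21.2 CPM against 24.3 to 55.1 (median 40.1) CPM (log2FC -1.24 ± 0.25, adjusted p = 0.0136), and its call was lost without metastasis 1, 3 or 4 (adjusted p = 0.0514 to 0.0841) and with library size scaling (adjusted p = 0.103). Among neutered dogs, 3 metastases against 4 HGA, ESR1 kept its call, while SRD5A1 (log2FC -5.18 ± 1.31), HSD17B6 (-3.56 ± 0.66) and SRD5A3 (-1.49 ± 0.33) did not pass the test in this smaller set, with log2FC no smaller than over all dogs. NR3C1, the glucocorticoid receptor, was at 19.47, 44.6, 7.72 and 9.58 CPM against 3.82 to 76.1 (median 35.8) CPM and was not called.

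Genes of the calcium axis did not move as a group. Of 9 genes, 4 were tested, and 1 rose and 1 fell (25% each, where 7.69% rose and 8.4% fell of all tested genes, median log2FC -0.28). TRPV6, an epithelial calcium channel, was at 121, 96.3, 216 and 20.4 CPM in metastases 1 to 4 and at 0 in all 10 HGA, at least 91.5-fold higher (adjusted p = 0.000425). VDR, the vitamin D receptor, was at 2.60, 6.10, 0.965 and 1.28 CPM against 6.73 to 44.7 (median 17.5) CPM (log2FC -2.96 ± 0.65, adjusted p = 0.0226), a call that was lost without metastasis 1, 3 or 4 (adjusted p = 0.0981 to 0.105) and with batch as a term (adjusted p = 0.52). PTHLH, which encodes parathyroid hormone-related protein, was at 12.7, 14.3, 2.89 and 236 CPM against 1.81 to 48.2 (median 12.2) CPM and was not called (log2FC 1.95 ± 0.87, adjusted p = 1). Its positive log2FC came from metastasis 4, without which it was -0.81, and metastases 1 to 3 lay within the HGA range. CALCA, the calcitonin gene, was at 126, 16.98, 0.322 and 0 CPM and at 0 in all HGA, which was too few libraries for a test.

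Receptor tyrosine kinases, targets of kinase inhibitors, gave calls in both directions. Of 20 genes, 15 were tested, and 1 rose and 4 fell (6.67% and 26.7%, median log2FC -0.50). Of all tested genes 7.69% rose and 8.4% fell, so the rise was near that share. DESeq2 called 4 higher and 4 lower, where it called 1483 and 1704 of all 17048 genes it gave an adjusted p. edgeR with batch as a term called 2 and 3, where it called 559 and 709 of all 12670 tested. FGFR1, a fibroblast growth factor receptor, was at 601, 235, 371 and 371 CPM against 20.3 to 90.8 (median 45.2) CPM (log2FC 2.93 ± 0.32, adjusted p = 3.74e-05). EGFR, the epidermal growth factor receptor, was at 73.3, 206, 14.5 and 63.6 CPM against 430.4 to 1320.2 (median 587) CPM (log2FC -2.95 ± 0.55, adjusted p = 0.00618). In the fit over all 25 samples EGFR missed the threshold (adjusted p = 0.0577). MET, the hepatocyte growth factor receptor, was at 0, 0.265, 0.643 and 25.2 CPM against 109 to 241 (median 177) CPM (log2FC -4.76 ± 0.96, adjusted p = 0.0118), and lost its call with batch as a term over 9 samples, where its log2FC was -5.28 ± 1.22 (adjusted p = 0.107). The groups did not overlap for these 3, and metastasis 4 stood above the other metastases for MET. FGFR2 was at 5.19, 6.90, 0.643 and 0.319 CPM against 7.21 to 67.5 (median 26.9) CPM (log2FC -3.17 ± 0.71, adjusted p = 0.027), a call lost without metastasis 1, 3 or 4 (adjusted p = 0.0669 to 0.106) and in the fit over all 25 samples (adjusted p = 0.87). IGF1R, the receptor of insulin-like growth factors, was at 13.6, 22.0, 17.05 and 6.07 CPM against 8.60 to 128 (median 98.7) CPM (log2FC -2.57 ± 0.59, adjusted p = 0.0318), a call lost without metastasis 1, 2, 3 or 4 and without HGA 1, 3, 5, 6, 7 or 8 (adjusted p = 0.0521 to 0.139) and with library size scaling (adjusted p = 0.0599). ERBB2, the HER2 receptor, was at 111, 115, 128 and 118 CPM against 18.5 to 159 (median 88.0) CPM, and was not called (log2FC 0.42 ± 0.37, adjusted p = 1).

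Posterior HOX genes, which mark the position of a tissue along the body, showed a mixed picture. Of 20 genes, 9 were tested, and 1 rose and 2 fell (11.1% and 22.2%, where 7.69% and 8.4% of all tested genes did, median log2FC -2.39), a rise near that share. DESeq2 called 1 higher and 4 lower, where it called 1483 and 1704 of all 17048 genes it gave an adjusted p. HOXC13, known for its role in hair and skin appendages, was at 0 in all metastases and at 4.07 to 9.22 (median 7.00) CPM in HGA, at least 7.62-fold lower (adjusted p = 0.000108). HOXD11 was at 0 against 3.64 to 61.5 (median 10.3) CPM, at least 24.8-fold lower (adjusted p = 0.0062), with an adjusted p of 0.0941 with batch as a term. HOXD8, of the same cluster, was at 52.6, 6.37, 128 and 5.11 CPM against 171 to 367 (median 252) CPM without overlap, but was not called (log2FC -2.39 ± 0.65, adjusted p = 0.0957). It was called lower in 3 of 28 alternatives, among them DESeq2 (adjusted p = 0.0024). HOXA13, a factor of the hindgut and urogenital end of the body, was at 95.1, 15.9, 1.29 and 17.3 CPM against 0 to 6.84 (median 0) CPM (log2FC 4.81 ± 1.097, adjusted p = 0.0311), a call lost without metastasis 1, 2 or 4 and without HGA 2, 5, 6, 7 or 8 (adjusted p = 0.0501 to 0.551), and with DESeq2 (adjusted p = 0.369).

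Few cell cycle genes were called, and their number changed with the setting. Of 30 genes, 29 were tested, and 2 rose (6.9%, near the 7.69% of all tested genes that rose) and 0 fell (median log2FC 1.34). Without HGA 10 the number that rose was 10, where 1195 of all 13263 tested genes rose. DESeq2, run with its default handling of outlying counts, called 10 higher, where it called 1483 of all 17048 genes it gave an adjusted p. edgeR with batch as a term, over batches 5 and 8, which do not hold HGA 10, called 6, where 559 of all 12670 tested rose. In neutered dogs, HGA 10 among them, 0 were called, where 246 of all 12860 tested genes rose and 234 fell. The summed level of the list was 1235, 1102, 1554 and 1199 CPM in metastases 1 to 4. It was 2001 CPM in HGA 10, above every metastasis, 1333 CPM in HGA 4 and at most 779.7 CPM in the other 8 HGA. AURKB, the aurora kinase of cell division, was at 122, 129, 169 and 99.7 CPM against 9.76 to 105 (median 19.0) CPM (log2FC 2.13 ± 0.47, adjusted p = 0.0241), a call lost without metastasis 1, 2 or 3 (adjusted p = 0.0604 to 0.11). MCM6, a helicase subunit of DNA replication, was at 50.0, 30.5, 43.4 and 37.1 CPM against 4.25 to 20.3 (median 11.7) CPM (log2FC 1.73 ± 0.29, adjusted p = 0.00261), with an adjusted p of 0.0765 with batch as a term. MCM6 did not overlap, while the highest HGA for AURKB reached the metastasis range. CDC20, an activator of mitotic exit, was at 51.9, 37.7, 57.6 and 41.5 CPM against 1.70 to 41.7 (median 7.20) CPM and was not called (log2FC 2.198 ± 0.57, adjusted p = 0.0706). It was called in 7 of 27 alternatives, among them without HGA 10 (log2FC 2.84 ± 0.38, adjusted p = 0.000356) and with DESeq2 (adjusted p = 0.0207). TOP2A, the topoisomerase of dividing cells, was at 99.3, 87.0, 181 and 114 CPM in the metastases and at 8.98 to 166 (median 13.9) CPM in HGA, of which HGA 10 and HGA 4 held 166 and 114 CPM.

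Interferon-response genes were higher in the metastases. Of 20 genes, 17 were tested, and 9 rose (52.9%, where 7.69% of all tested genes rose) and 0 fell (median log2FC 2.72). The number that rose was 8 without HGA 10, 10 with DESeq2, 3 with batch as a term and 1 in neutered dogs. Over all genes, 1195 of 13263 tested rose without HGA 10 and 1483 of 17048 given an adjusted p rose with DESeq2. With batch as a term 559 of 12670 tested rose, and in neutered dogs 246 of 12860. STAT2, a factor of type I interferon signaling, was at 129.8, 122, 112 and 84.3 CPM in metastases 1 to 4 and at 26.3 to 42.5 (median 34.8) CPM in HGA (log2FC 1.63 ± 0.18, adjusted p = 4.74e-05). MX1, an antiviral GTPase, was at 71.4, 162, 24.4 and 42.2 CPM against 1.62 to 13.6 (median 9.23) CPM (log2FC 3.18 ± 0.45, adjusted p = 0.00056). Neither overlapped, and metastasis 3 had the lowest MX1 of the 4. IFIT2, which binds viral RNA, was at 15.2, 27.6, 23.5 and 7.03 CPM against 0 to 2.35 (median 0.825) CPM (log2FC 4.02 ± 0.67, adjusted p = 0.00258). IFI44 was at 164, 402, 116 and 165 CPM against 6.76 to 98.5 (median 28.5) CPM (log2FC 2.78 ± 0.50, adjusted p = 0.00496). Each of these 4 genes was higher in all metastases than in any HGA. ISG15, a ubiquitin-like modifier, was at 37.0, 88.6, 4.18 and 27.2 CPM against 1.23 to 8.59 (median 3.73) CPM (log2FC 3.25 ± 0.58, adjusted p = 0.00423), with metastasis 3 inside the HGA range, and its call was lost without metastasis 2 (adjusted p = 0.0746). IFIT3 was at 16.3 to 63.4 CPM against 0 to 6.33 (median 0.607) CPM (log2FC 4.12 ± 0.80, adjusted p = 0.00922), a call lost without metastasis 3 (adjusted p = 0.0724). The primaries against HGA gave log2FC of 1.499 for STAT2, 3.17 for MX1 and 2.53 for IFI44, all called. All 4 metastases were above every HGA in the summed level of the list, which was 927, 1722, 564 and 777 CPM in metastases 1 to 4 and 147 to 466 CPM in HGA. With batch as a term the adjusted p was 0.066 for IFIT2, 0.169 for ISG15 and 0.135 for IFIT3. The 13 T cell markers, of which 1 of 8 tested (12.5%) was called higher, summed to 62.0 to 91.0 CPM in the metastases and 4.30 to 94.5 CPM in HGA, and their part in the interferon result was not tested.

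Cadherins and regulators of the mesenchymal state were mostly not called. Of 11 genes, 7 were tested, and 0 rose and 1 fell (14.3%, where 8.4% of all tested genes fell), SNAI2, a repressor of E-cadherin that basal cells also express, at 3.24, 12.7, 6.11 and 4.15 CPM against 18.2 to 179 (median 59.1) CPM (log2FC -3.45 ± 0.55, adjusted p = 0.00173). FN1, the matrix protein fibronectin, was at 61.3, 1629.8, 107 and 84.7 CPM against 3.39 to 203 (median 61.7) CPM, with metastasis 2 far above the rest, and was not called (log2FC 2.64 ± 0.82, adjusted p = 0.208). VIM, the intermediate filament of stromal cells, was at 104, 494, 153 and 211 CPM against 138 to 789 (median 474) CPM and was not called.

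Markers of other cell types were summed per sample to describe what else the sections held. T cell markers, 13 genes, summed to 62.0, 73.0, 91.0 and 70.3 CPM in metastases 1 to 4 and to 4.30 to 94.5 CPM in HGA (median 26.6). B cell markers, 11 genes, summed to 43.7 to 70.4 CPM and 6.76 to 84.6 CPM (median 17.02). Lymph node stroma markers summed to 12.3 to 48.6 CPM in the metastases and 13.3 to 147 CPM in HGA, so the nodal samples were not the higher ones. Lymphocyte markers thus lay in the upper part of the HGA range. Of the 8 tested T cell genes 1 was called higher (12.5%, where 7.69% of all tested genes rose). It was CD3G, a chain of the T cell receptor complex, at 12.7, 10.3, 11.9 and 13.1 CPM against 0 to 3.04 (median 0.306) CPM (log2FC 3.62 ± 0.84, adjusted p = 0.0343), a call lost without metastasis 1, 2, 3 or 4 and without HGA 2, 3, 5 or 6 (adjusted p = 0.0523 to 0.113) and with no filter on low counts (adjusted p = 0.0536). CCL21, a chemokine that guides cells into lymph nodes and lymphatics, was lower in the nodal tumors, at 0.649, 4.24, 4.18 and 5.11 CPM against 5.59 to 126 (median 43.0) CPM (log2FC -4.02 ± 0.82, adjusted p = 0.0133), a call lost without metastasis 1, 2 or 3 (adjusted p = 0.0531 to 0.0583). edgeR called 0 of 5 tested B cell genes, 3 plasma cell genes, 13 fibroblast and matrix genes and 1 skeletal muscle gene. Of these, 1, 2, 0 and 1 were at an unadjusted p under 0.05. Of all tested genes, 16.1% were called either way and 41.2% were at such a p. DESeq2 called 1 gene of these lists, the B cell gene MS4A1. Plasma cell markers summed to 51.5 to 198 CPM in the metastases and 19.1 to 122 CPM in HGA.

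Macrophage markers summed to 249 to 685 CPM in the metastases and 120.5 to 485 CPM in HGA. Of 13 tested genes 1 was called higher (7.69%, the same share as over all tested genes). It was CD14, a receptor for bacterial lipopolysaccharide, at 65.2, 41.7, 18.3 and 93.6 CPM against 6.16 to 30.3 (median 15.2) CPM (log2FC 1.69 ± 0.39, adjusted p = 0.0313), a call lost without metastasis 1, 2 or 4 and without HGA 3, 5, 6, 7 or 9 (adjusted p = 0.0537 to 0.298). Fibroblast and matrix genes summed to 899.6, 14886, 1629 and 3623 CPM in metastases 1 to 4, which set metastasis 2 apart, and to 1443 to 6536 CPM in HGA. Smooth muscle and myoepithelial markers summed to 91.8, 797, 167 and 239 CPM and 228 to 499 CPM. Of 8 tested genes 1 was called lower (12.5%, where 8.4% of all tested genes fell). It was MYLK, the myosin light chain kinase, at 16.2, 49.6, 17.7 and 21.7 CPM against 97.2 to 308 (median 165) CPM (log2FC -2.84 ± 0.41, adjusted p = 0.000635). Endothelial markers summed to 86.0 to 249.8 CPM and 215 to 611 CPM. The von Willebrand factor VWF was the 1 called lower of 10 (10%, near the 8.4% of all tested genes that fell). It was at 47.0, 57.8, 25.7 and 33.5 CPM against 84.8 to 282 (median 121) CPM (log2FC -1.71 ± 0.33, adjusted p = 0.00825), a call lost without metastasis 3 (adjusted p = 0.052). Adipocyte markers summed to 7.72 to 85.3 CPM and 35.3 to 344 CPM. LPL, the lipoprotein lipase, and PLIN4, a lipid droplet protein, were called lower among 4 tested (50%, where 8.4% of all tested genes fell). LPL was at 1.30, 5.04, 2.25 and 4.15 CPM against 14.2 to 281 (median 40.8) CPM (log2FC -4.68 ± 0.93, adjusted p = 0.0109), a call lost without metastasis 1 or 3 (adjusted p = 0.058 to 0.0581). ADIPOQ, the adipocyte hormone adiponectin, was at 20.1, 6.37, 4.82 and 73.8 CPM against 0 to 22.5 (median 1.23) CPM and was not called.

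**Figure D4:**
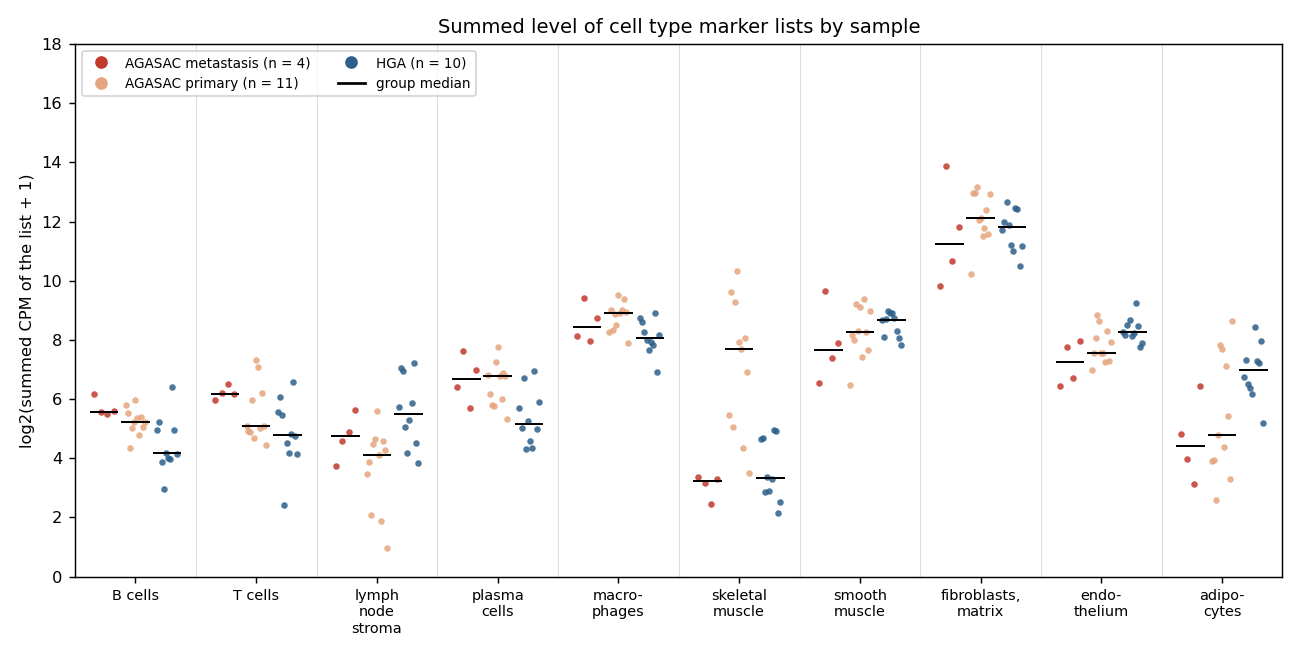
Summed CPM of 10 cell type marker lists per sample, as log2(sum + 1), for 4 metastases, 11 primary AGASAC and 10 HGA, with 1 dot a sample and a line at the group median. B cell and T cell sums of the metastases lie in the upper part of the HGA range, nodal stroma markers do not, and skeletal muscle markers are high in primaries only, at up to 1295 CPM.

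Whether a difference from HGA depended on the site was tested between the 4 metastases and the primary tumors of the same 4 dogs. Of 12629 genes tested, 0 (0%) were called by edgeR, with 145 at an unadjusted p under 0.05 (1.15%), and DESeq2 called 5. With the dog as a block, 1 gene (0.00792%) fell and 0 rose, with 491 at an unadjusted p under 0.05. That gene was ACTA1, the skeletal muscle actin, at 0, 0.531, 0 and 0.639 CPM in metastases 1 to 4 and at 11.5, 249, 8.01 and 239 CPM in primaries 1 to 4 (log2FC -8.59 ± 0.30, adjusted p = 0.00104 with the block), and its call was lost without dog 2. DESeq2 called ACTA1, MYL1, MYLPF and CKM lower, all genes of skeletal muscle fibers, and SPOCK2, a matrix proteoglycan, higher. Summed skeletal muscle markers were 4.503 to 9.41 CPM in the metastases, 3.39 to 29.8 CPM in HGA and 10.2 to 1295 CPM in the 11 primaries, so it was the primaries that were high. ACTA1 was called higher in primaries than in HGA (log2FC 6.38) and was too low to be tested between metastases and HGA.

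No gene called between metastases and HGA had all 4 metastases outside both the HGA range and the range of the 11 primaries. Of the 16 genes with the highest and lowest log2FC against HGA, the 8 high ones could be tested between metastasis and own primary, and the 8 low ones had too few counts in the carcinomas. Without the block the log2FC was -0.07 ± 0.87 for QRFPR, 0.06 ± 0.22 for GCGR, -0.28 ± 0.44 for PIP, 0.09 ± 0.35 for KRT8 and 0.14 ± 0.40 for KRT19. For the other 3 it was 0.40 ± 1.03 for B3GALT2, -0.23 ± 1.25 for CYP4A11 and -0.24 ± 0.72 for RNF212, and 0 of the 8 passed edgeR's test or had an unadjusted p under 0.05 in this fit. A fit without the block ignores that the tumors are pairs from the same dogs. With the dog as a block, ACTA1 was the 1 gene called, so none of the 8 was called there. A p that misses the threshold does not show that node and anal sac are alike. IGF2, the insulin-like growth factor 2, was an example of values that differed: 31.1, 73.2, 60.5 and 328 CPM in metastases 1 to 4, 15.7, 27.4, 23.7 and 59.2 CPM in their primaries and 3.47 to 58.2 (median 9.77) CPM in HGA. It was called against HGA (log2FC 2.76 ± 0.67, adjusted p = 0.0482), a call lost without metastasis 2, 3 or 4 and without HGA 1, 2, 4, 5, 6, 8, 9 or 10 (adjusted p = 0.0637 to 0.929). In each of the 4 dogs IGF2 was higher in the metastasis than in the primary. Its log2FC against the own primaries, 1.96 ± 0.75 without the block, was not called, and neither was IGF2 with the block.

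Several genes, chosen after their values were seen, differed widely among the 4 dogs, and no test was made of this. ERBB3, a receptor of neuregulins, was at 7.79, 23.6, 315 and 302 CPM in metastases 1 to 4 and at 26.5, 165, 135 and 319 CPM in primaries 1 to 4. ERBB4, a related receptor, was at 41.9, 42.4, 3.22 and 4.47 CPM and 47.6, 113, 5.93 and 2.50 CPM, and at 0 in all 10 HGA. Metastases 1 and 2 were thus low in ERBB3 and high in ERBB4, and metastases 3 and 4 the reverse. RET, a receptor of glial cell line-derived growth factors, was at 63.3, 24.9, 1.29 and 0.639 CPM and 75.0, 10.5, 5.93 and 1.95 CPM. WFDC2, a secreted protease inhibitor, was at 0, 0, 76.9 and 199 CPM and 0, 0, 39.7 and 136 CPM. Metastases 1 and 2 and metastases 3 and 4 were also the pairs of the extraction batches 8 and 5, so batch and dog cannot be told apart for this split among the metastases. Primaries 1 and 2 were extracted in batch 8 and primary 3 in batch 5, as their metastases were. Primary 4 was extracted in batch 6 and was at 2.50 CPM of ERBB4, 1.95 of RET and 136 of WFDC2. The part of the batch in this split was not tested. PIGR, the transporter of IgA into secretions, was at 95.1, 0, 956 and 1381 CPM in the metastases and 70.5, 11.1, 734 and 1213 CPM in their primaries, against 2 counts over all HGA. HOXA9 was at 1.95, 11.9, 135 and 4.47 CPM and 22.0, 1.31, 112 and 3.89 CPM, with dog 3 high in both tumors. Of these 6 genes, ERBB3, RET and HOXA9 were tested between metastases and HGA and not called, and ERBB4, WFDC2 and PIGR had too few libraries with enough counts for a test, while DESeq2, with its own filter, called RET, ERBB4 and PIGR higher.

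**Figure D5:**
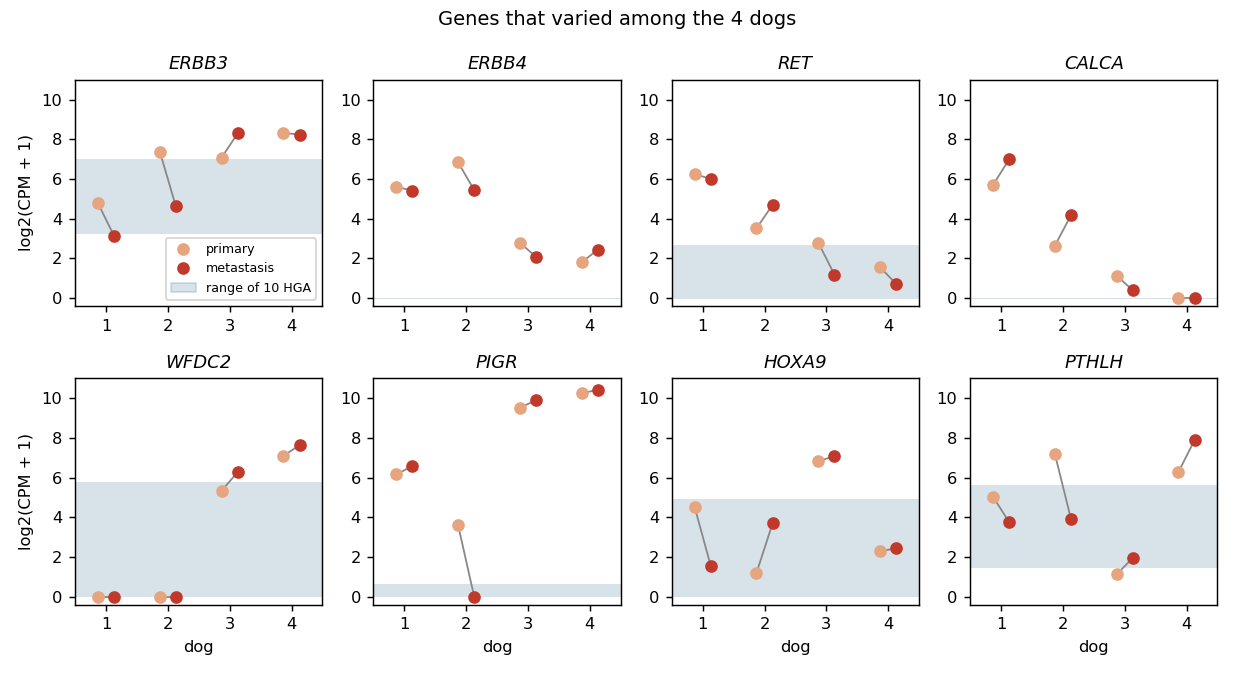
Level of 8 genes as log2(CPM + 1) in the primary tumor and the metastasis of dogs 1 to 4, joined by a line for each dog, with the range of the 10 HGA shaded. ERBB4, RET and CALCA are higher in dogs 1 and 2 and WFDC2 in dogs 3 and 4 in both tumors, and PTHLH ranges from 2.89 to 236 CPM among the metastases.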

How the data were processed

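QuantSeq 3′ libraries of 25 FFPE canine tumors, 4 AGASAC metastases, 11 primary AGASAC and 10 HGA, were analyzed from the deposited gene table. Raw counts per gene had been made by the authors, whose processing notes name cutadapt, STAR, featureCounts, DESeq2 and the genome CanFam3.1, with versions not given in the sources used here, and with reads of several matches split evenly. Other columns of the deposited table held signal (counts the authors divided by size factors) and the authors' own comparison, as log2 fold changes, a standard error score and p-values. These were not used. No genome of the build was used, so no positions or sequences are given.

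Counts were tested with edgeR 4.0.16 in R 4.3.3 (TMM, filterByExpr with a minimum count of 10 and a minimum total of 15, quasi-likelihood test), and a gene was called at a Benjamini-Yekutieli adjusted p no larger than 0.05 with a log2FC of 1 or more in size. The standard error is the log2FC divided by the root of F. CPM were scaled with TMM over all 25 samples, and plots add a pseudocount of 1. Counting intervals are exact at the 95% level. The steps were tested on simulated data. Chi-square per degree of freedom between libraries was at least 12.2 within HGA and 32.6 within the metastases, so none was a duplicate. Total counts were 1562347 to 6389555 per sample, which limits genes of low level.

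Genes named were the 8 highest and 8 lowest log2FC among called genes without overlap, genes of the lists with the smallest p, a few fixed genes, and genes said to be chosen after their values were seen. The members and lists were chosen with earlier results of these data known. Metastases and primaries of the same number are the same dog: their deviations from the group means correlated at 0.699, 0.485, 0.545 and 0.416 for dogs 1 to 4. Alternatives were other scalings, filters and adjustments, DESeq2 1.42.0, all 25 samples in a fit, single libraries left out, extraction batch (from a table of the study), neutered dogs, DV200 and replicate blocks. Leaving out HGA 10 with HGA 4, and leaving out dogs under the block, were added after seeing the data. A few genes that the rule names are not reported here.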

Additional observations from a re-analysis of the deposited data

Results flagged for a closer look

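Among the samples of a group, a value that lay far from the others by Dixon's test was looked for in 188 groups of gene values and 48 of list sums, and chance alone gives about 1 in 20. It was found for 27 genes and 1 list, and HGA 10 held 13 of the 28 values. HGA 10 was lowest for CIDEA at 386 CPM (others 1409 to 2365), KRT79 at 39.1 CPM (others 977 to 2427), CALML5 at 1.72 CPM (others 139 to 1287), TGM5 at 7.74 CPM (others 68.9 to 426), KRT17 at 4.73 CPM (others 88.0 to 374), ACSL1 at 80.0 CPM (others 1364 to 6932) and SCD at 2206 CPM (others 37005 to 116391). It was also lowest for FDFT1 at 83.9 CPM (others 266 to 715), DHCR7 at 11.2 CPM (others 77.3 to 224), HSD17B6 at 14.6 CPM (others 67.5 to 105) and ERBB3 at 8.60 CPM (others 50.5 to 125), and highest for CDC20 at 41.7 CPM (others 1.70 to 10.5). Its summed sebaceous lipid level was 5226 CPM (others 45046 to 137555).

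Other HGA stood apart for single genes. HGA 4 was lowest for TFAP2B at 23.98 CPM (others 41.9 to 73.0), and highest for WFDC2 at 52.9 CPM (others 0 to 0.904) and ARHGAP25 at 191 CPM (others 83.6 to 128). HGA 7 was lowest for MCM6 at 4.25 CPM (others 9.76 to 20.3) and highest for VWF at 282 CPM (others 84.8 to 148). The other such values were ANPEP at 0 CPM (others 3.69 to 20.6) in HGA 9, RSAD2 at 54.7 CPM (others 0 to 5.34) in HGA 2 and ARHGEF40 at 2.16 CPM (others 5.13 to 11.9) in HGA 5.

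Among the metastases, metastasis 1 stood apart for CCL21 at 0.649 CPM (others 4.18 to 5.11), AACS at 4.22 CPM (others 7.67 to 7.72) and DSP at 324 CPM (others 194 to 211). Metastasis 2 was highest for FN1 at 1629.8 CPM (others 61.3 to 107), and metastasis 3 lowest for B3GALT2 at 16.4 CPM (others 339.7 to 355). Metastasis 4 was highest for MET at 25.2 CPM (others 0 to 0.643) and KRT5 at 12.1 CPM (others 0 to 0.265).

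ACTA1 differed between the sites of the carcinoma, with a log2FC of -8.59 of metastasis against primary of the same dogs with the dog as a block (edgeR adjusted p = 0.00104), a call lost without dog 2.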

How the results depend on the processing

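Between metastases and HGA, 1015 genes were higher and 1109 lower. Leaving out 1 library gave 793 to 1195 higher and 719 to 1393 lower genes, with the fewest lower genes without metastasis 3. A minimum of 10 counts in every sample left 512 higher and 641 lower, and for the genes it removed no value was had. DESeq2 gave 1704 lower genes, and Benjamini-Hochberg adjustment 1618 higher and 1918 lower. Extraction batch as a term, which keeps 9 samples, gave 559 and 709, each batch alone 0 and 0, and neutered dogs 246 and 234. The replicate block by label number gave 294 higher and 468 lower. Those numbers do not pair metastases with HGA, which are different dogs, and the correlation of their deviations was -0.0322 to 0.00905. Between metastases and primaries of the same dogs, 0 genes were called without the block. The dog block gave 0 higher and 1 lower, as it did without dogs 1, 3 or 4 and not without dog 2, and DESeq2 1 higher and 4 lower. Of the named genes followed through the alternatives, a set without FAR2, 43 lost their call in neutered dogs. In the same set 26 lost it with the block by label number and 12 with batch as a term. The genes called over all samples kept their direction under RLE and library size scaling, DESeq2 and the batch term. These fits use the samples that gave the calls, or a part of them, so kept directions are not separate support. Directions turned for genes that were not called: HOXA9 (log2FC from -0.13 without metastasis 3 to 3.125 without HGA 2 when 1 library was left out, and 4.57 within batch 5), PTHLH (from -0.81 without metastasis 4 to 2.35 without metastasis 3, -0.91 in neutered dogs and 2.77 without HGA 10 and HGA 4), ERBB3 (-2.54 within batch 8) and SPOCK2 (-0.18 in neutered dogs), and the cause was not tested. With 4 metastases and 2857541 to 3289546 counts each, weak expression and small differences are not detectable, and 0 calls within a batch of 4 or 5 samples says nothing about stability.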

Other observations

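Among the genes with the smallest p-values between metastases and HGA, chosen after their values were seen, were genes outside the lists of the report. Membrane proteins and signaling genes stood among those that rose. ATP2B2, a plasma membrane calcium pump, was at 269, 133, 321 and 327 CPM in metastases 1 to 4 against 2 counts over all HGA, a ratio of 3622 (95% counting interval 1002 to 29924). SSTR1, a somatostatin receptor, was at 191, 357, 273 and 118 CPM against 0 to 0.911 (median 0) CPM in HGA (edgeR log2FC 9.67 ± 0.53, adjusted p = 3e-08). SLC38A4, a neutral amino acid transporter, was at 231, 190.2, 138 and 93.9 CPM against 0 to 0.822 (median 0) CPM (log2FC 9.34 ± 0.51, adjusted p = 3e-08). NPTX2, a secreted pentraxin, was at 56.8, 238, 160.2 and 80.5 CPM against 1 count over all HGA, a ratio of 3937 (95% counting interval 706 to 155581). ARHGEF40, a guanine nucleotide exchange factor, was at 247, 249.7, 307 and 186 CPM against 2.16 to 11.9 (median 6.83) CPM (log2FC 4.97 ± 0.28, adjusted p = 3.88e-08). In the 11 primaries these 5 genes were at 77.1 to 459.6, 13.3 to 361, 0 to 239, 5.90 to 380.4 and 146 to 381 CPM.

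Those that fell were of mixed function, and every HGA was above every metastasis for them. HGA 10 was the lowest HGA for AACS, ST6GALNAC2 and TRIM29. ARHGAP25, a Rac-inactivating protein, was at 3.57, 3.98, 2.89 and 2.56 CPM against 83.6 to 191 (median 109) CPM (log2FC -5.17 ± 0.31, adjusted p = 9.06e-08). EGR3, an early growth response factor, was at 1.62, 4.24, 3.54 and 1.92 CPM against 76.2 to 175 (median 115) CPM (log2FC -5.37 ± 0.35, adjusted p = 2.35e-07). AACS, which feeds acetoacetate into lipid synthesis, was at 4.22, 7.69, 7.72 and 7.67 CPM against 102 to 242 (median 195) CPM (log2FC -4.78 ± 0.32, adjusted p = 2.48e-07). ST6GALNAC2, a sialyltransferase, was at 0.324, 0.531, 1.61 and 0.639 CPM against 68.8 to 242 (median 207) CPM (log2FC -7.86 ± 0.54, adjusted p = 3.54e-07). TRIM29, a protein of basal epithelium, had 2 counts over the metastases and was at 94.6 to 327 (median 148) CPM in HGA, a ratio of 1096 (95% counting interval 303 to 9052). The log2FC in the primaries against HGA was -5.15 for ARHGAP25, -3.77 for EGR3, -3.55 for AACS and -5.81 for ST6GALNAC2. All the genes of both paragraphs kept their calls under every alternative in which they were tested, except within a single extraction batch. A minimum of 10 counts in every sample removed all of them but AACS, so no call was had there.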
